A study of Mus musculus with 12 samples.

Results

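The response of wild-type mouse lung to the mould Aspergillus fumigatus (Af) was read from 6 of the 12 libraries of a poly-A RNA sequencing series: the 3 named WT_Af against the 3 named WT_PBS. The mice were labelled Balb/cJ and wild type for Rgs4, a regulator of G protein signalling that the series deletes in its other 6 libraries. WT_Af lungs came from mice exposed to Af and WT_PBS lungs from mice given phosphate-buffered saline (PBS). The sources used here do not give the form, dose, route or timing of the exposure, or the age of the mice. Libraries are named by group and number, WT_PBS 15, 16 and 17 and WT_Af 18, 19 and 20, and wherever 3 values are given for a group they stand in that order. Of the 49585 genes in the table, the 16126 that reached 1 CPM (reads scaled to a common library total, the unit of the deposited table) in 3 or more of the 12 libraries entered the test. Unless another method, filter or setting is named, an adjusted p below is from limma with Benjamini-Hochberg adjustment over those 16126 genes. A call is an adjusted p under 0.05. A log2 change is, with the same exception, the difference WT_Af minus WT_PBS in log2(CPM + 0.5). Nothing in the labels says that the libraries came from separate animals. A p-value here thus weighs the difference between groups only against the spread of libraries within a group. That spread, which also sets each SE, was estimated in 1 fit over all 12 libraries. It therefore includes the spread among the 6 knockout libraries, whose values are mostly not shown.

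Inhaled Af is a common allergen as well as a pathogen, and in mouse airways it is used to provoke allergic inflammation. In that response damaged epithelium releases alarmins such as interleukin 33, lymphoid cells answer with interleukins 4, 5 and 13, and these act through the transcription factor STAT6 on macrophages and on airway epithelium. Macrophages then make chitinase-like and resistin-like proteins, airway cells turn to mucus production, and chemokines draw in eosinophils and monocytes.

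The lung label was checked against defining markers. Sftpc, the surfactant protein C gene of alveolar type 2 cells, stood at 14586, 9643 and 8512 CPM in WT_PBS and 11024, 7273 and 6838 CPM in WT_Af. Ager, the receptor gene that marks alveolar type 1 cells, stood at 1795, 2069 and 1957 CPM in WT_PBS and 1170.2, 749 and 635 CPM in WT_Af, and Scgb1a1, the secretoglobin of club cells, at 12554, 14928 and 13911 CPM in WT_PBS and 7952, 8275 and 8742 CPM in WT_Af. All 6 libraries thus held the markers of lung epithelium at high levels. Totals ran from 20708884 to 30229446 recovered reads per library, so that 3 reads, the most that a count of 0 allows, were worth 0.0983 to 0.144 CPM. Intervals and floors of this kind cover counting error only.

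Some libraries stood apart in genes of other tissues. WT_Af 18 was the highest of all 12 libraries for each of 12 thymus genes, a list made after the values were seen. Rag1, the recombinase gene of immature lymphocytes, stood at 109, 0.754 and 0.15 CPM in WT_Af, and no other library of the series exceeded 0.754 CPM. Dntt, which adds bases at receptor joints in thymocytes, stood at 57.5, 0.622 and 0.524 CPM and Prss16, a protease gene of thymic epithelium, at 40.1, 1.47 and 0.711 CPM. Summed over the 12 genes, WT_Af 18 held 421 CPM and the other 5 wild-type libraries 9.23 to 23.4 CPM. WT_PBS 17 held 1004 CPM of 10 squamous epithelium genes, while WT_PBS 15 and 16 held 3.39 and 6.60 CPM and the WT_Af libraries 176 to 244 CPM. The members differed: Krt13 stood at 240 CPM in WT_PBS 17 and 0.288, 0.393 and 0.0374 CPM in WT_Af. Sprr2a2 stood at 306 CPM in WT_PBS 17 and 102, 85.6 and 69.8 CPM in WT_Af. WT_PBS 17 also held 478 CPM of 10 skeletal muscle genes such as Acta1, against 9.29 to 93.5 CPM in the other 5 wild-type libraries. WT_PBS 15 stood apart for matrix genes, with the elastin gene Eln at 2014, 176 and 209.6 CPM in WT_PBS. These values are taken up again beside the results they touch. Members of families with near-identical copies (Ear and Rnase2 ribonucleases, Cyp2a and Cyp4a12, Sprr2a, Serpina3, Mcpt, Chil3 and Chil4, Ccl21 and Ccl27) are uncertain, since the counting could split reads between copies.

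**Figure D1:**
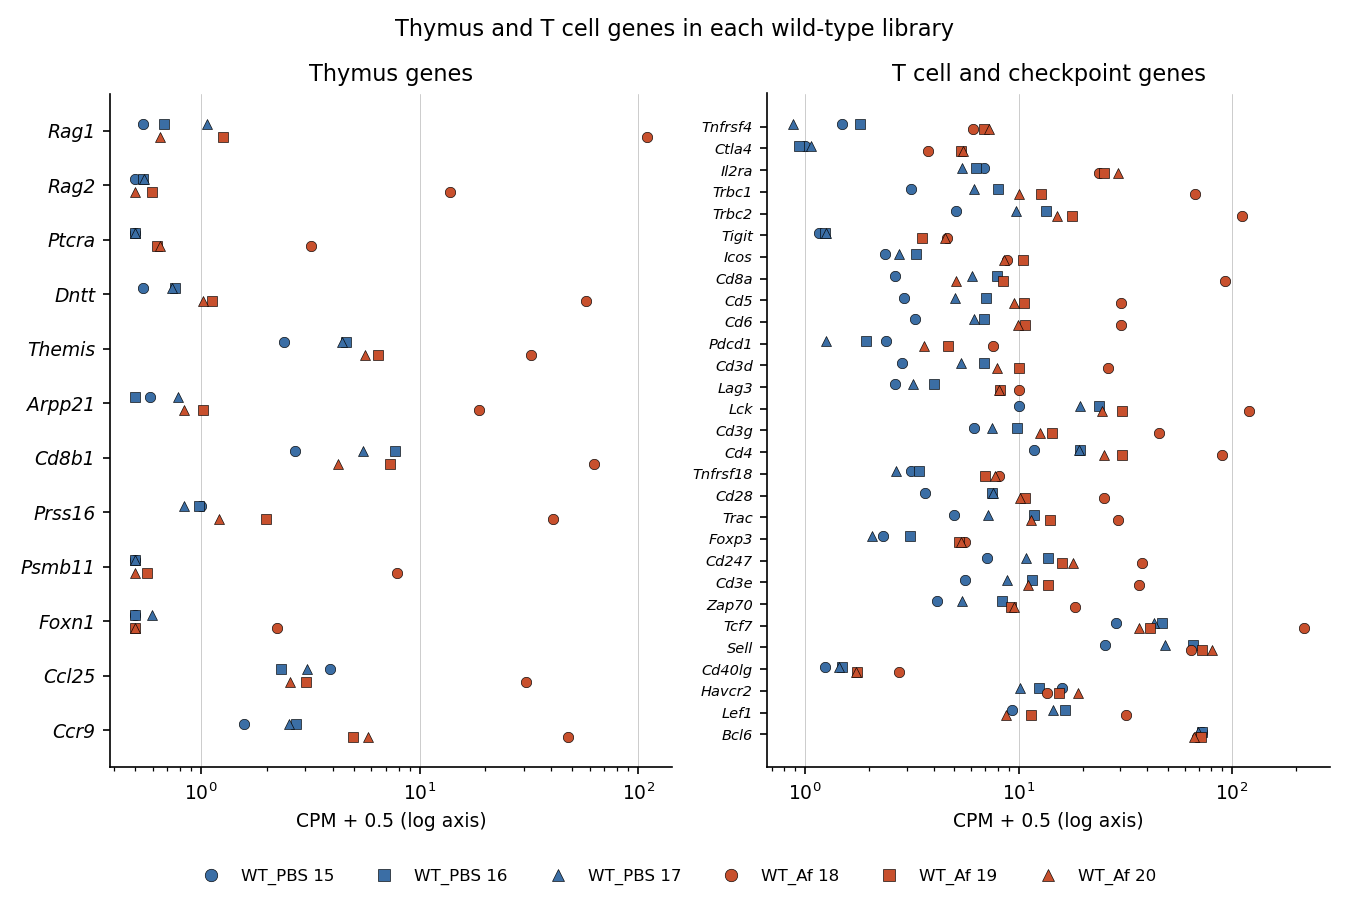
Level of 12 thymus genes (left) and of the 29 tested T cell and checkpoint genes (right) in each wild-type library, as CPM + 0.5 on a log axis; each point is 1 library. WT_Af 18 lies to the right of the other 5 libraries for all 12 thymus genes and for T cell genes such as Cd8a, Lck and Tcf7, while Ctla4, Il2ra and Tnfrsf4 are high in all 3 WT_Af libraries.

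Over all tested genes 4228 (26.2%) rose and 4133 (25.6%) fell, 51.8% in either direction, and the median log2 change was -0.02. Any count of members given below is to be read against those shares. Groups that do not overlap were also common: every WT_Af library lay above every WT_PBS library in 32.7% of tested genes, and below in 32.7%. At least 2-fold changes were fewer, 1160 genes higher (7.19%) and 965 lower (5.98%). Large changes were mostly rises: 68 genes rose at least 8-fold and 6 fell as much, and 23 rose and 3 fell at least 16-fold. The gene lists used here, 56 in all, were chosen with earlier results of these data known, so their counts describe the response and are no independent evidence of its direction. In these whole-lung libraries, fewer cells of a type and less RNA per cell cannot be told apart.

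**Figure D2:**
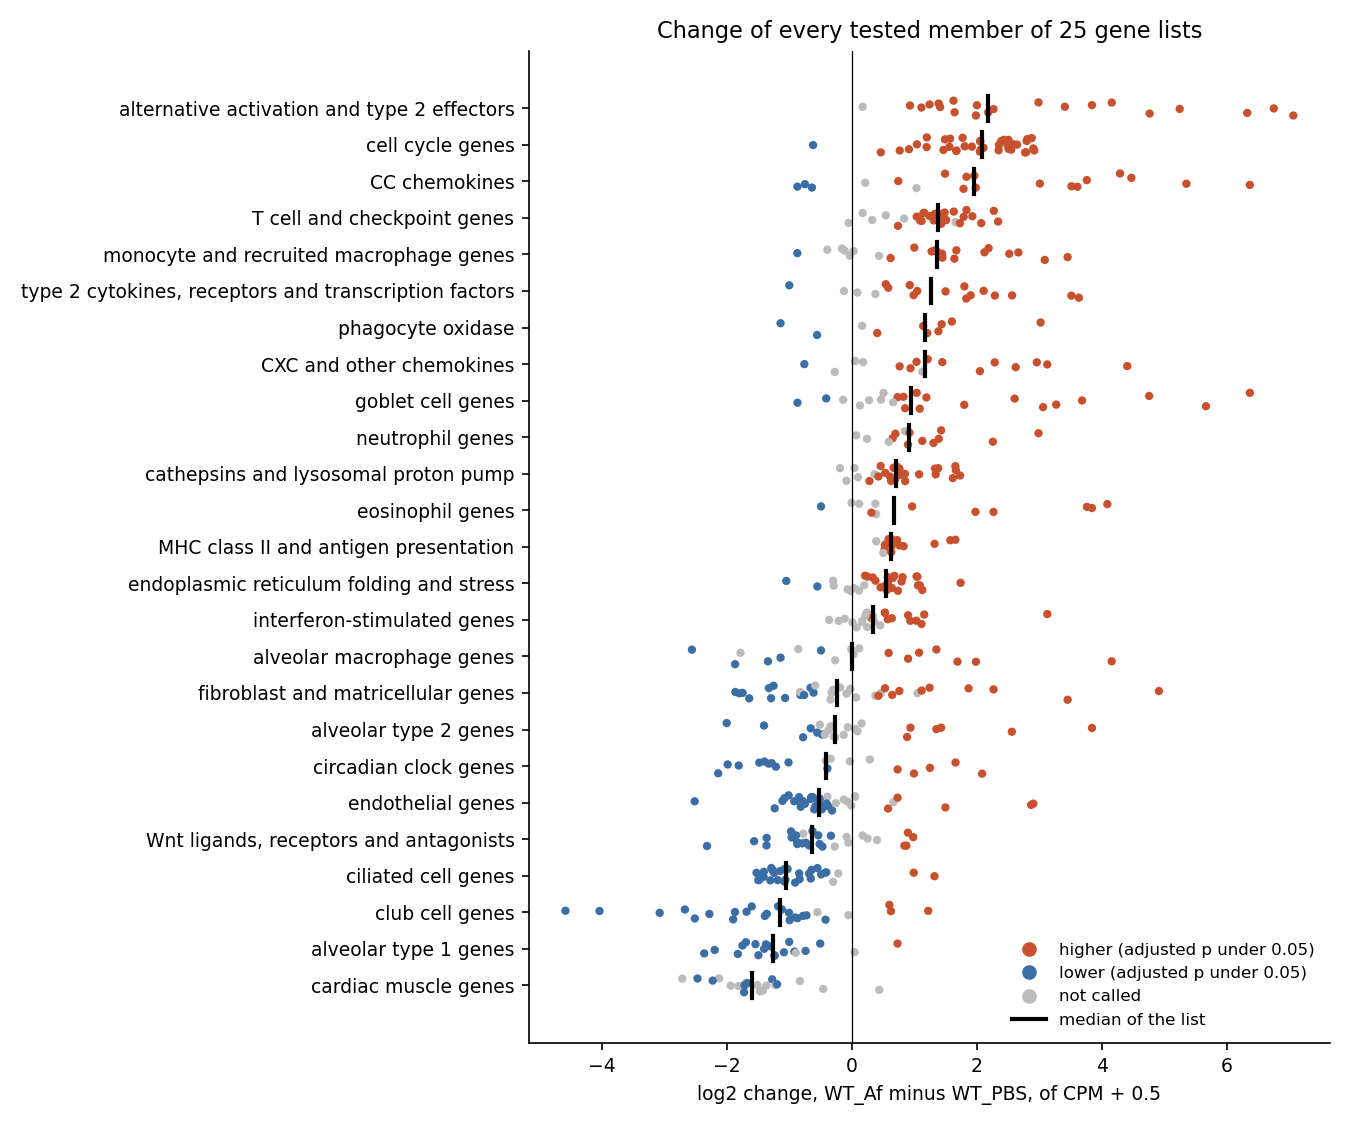
Log2 change (WT_Af minus WT_PBS, of CPM + 0.5) of every tested member of 25 gene lists, 1 point per gene, coloured by its call; the black bar is the median of the list. Medians run from 2.18 for alternative activation and type 2 effectors to -1.59 for cardiac muscle genes, against -0.02 over all tested genes.

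The gene with the highest rise was Rnase2a (chr14:51255262-51256112, minus strand, GRCm38), a secreted ribonuclease of the eosinophil-associated family. It stood at 0.786, 1.17 and 2.22 CPM in WT_PBS and 344, 313 and 339 CPM in WT_Af (log2 7.53 ± 0.34 SE, adjusted p = 1.72e-07). The groups lay far apart, with less than 2.5 CPM in every WT_PBS library and over 300 CPM in every WT_Af library. Cd209e, a C-type lectin gene, went from 0.166, 0.174 and 0.472 CPM to 20.8, 34.7 and 31.3 CPM (log2 5.24 ± 0.21 SE). Timp1, an inhibitor of matrix metalloproteinases, stood at 13.5, 9.85 and 7.23 CPM in WT_PBS and 169.5, 414 and 432 CPM in WT_Af (log2 4.91 ± 0.33 SE, adjusted p = 1.01e-06). WT_Af 18 was the lowest of the WT_Af libraries for both genes and still above every WT_PBS library. The other 7 of the 10 highest rises were Arg1, Retnla, Clca1, Ccl8, Chil4, Slc26a4 and Ccl7, which are taken up below with their families.

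Among the lowest changes, Cyp2a5, a cytochrome P450, stood at 132, 189.9 and 141 CPM in WT_PBS and 8.97, 4.98 and 4.49 CPM in WT_Af (log2 -4.58 ± 0.26 SE). Cyp4a12b, a fatty acid hydroxylase, stood at 3.68, 7.46 and 5.72 CPM in WT_PBS and 0.048, 0.229 and 0.112 CPM in WT_Af (adjusted p = 1.84e-06). Scgb3a2, a secretoglobin, and Pon1, a lactonase, fell by 3.08 and 2.67 on the log2 scale. Igfbp3, which binds insulin-like growth factors, fell by 2.94 (212, 206 and 183 CPM in WT_PBS and 28.5, 21.5 and 27.1 CPM in WT_Af), and Gria1, a glutamate receptor subunit, by 2.70. In all of these the groups did not overlap, which was a condition of their choice. Myl3, Mb and Tcap of striated muscle were also among the lowest (log2 -3.09, -2.86 and -2.70). The summed levels of cardiac muscle genes are given below, and their part in these falls was not tested. Mb lost its call without WT_PBS 15, 16 or 17 or WT_Af 20 (adjusted p up to 0.146) and with edgeR (0.0675) and DESeq2 (0.058), and Myl3 without any library but WT_PBS 15 (up to 0.124).

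**Figure D3:**
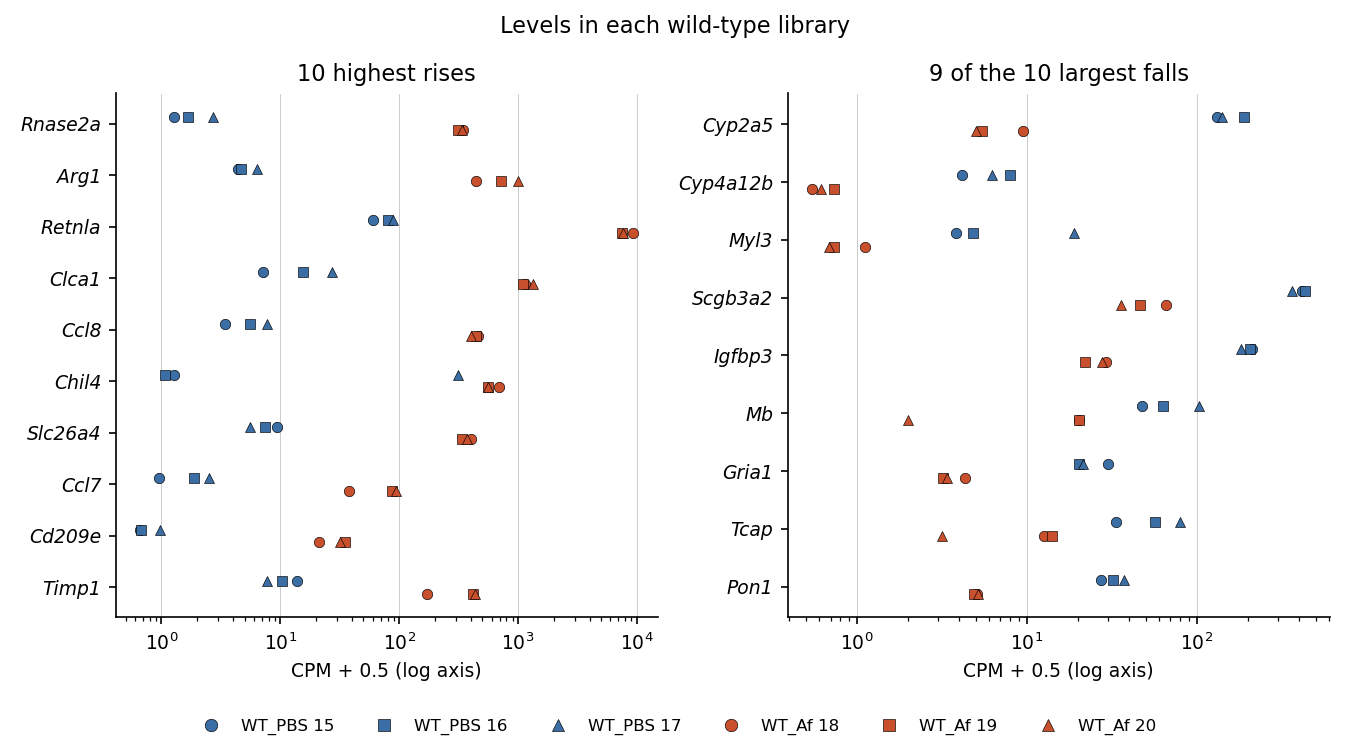
Level of the 10 genes with the highest rises (left) and 9 of the 10 with the largest falls (right) in each wild-type library, as CPM + 0.5 on a log axis; each point is 1 library. The groups do not overlap for any gene drawn, which was a condition of their choice. Standing away from their group are 3 values: Chil4 in WT_PBS 17, and Mb and Tcap in WT_Af 20.

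Measured as reads gained rather than as folds, Retnla, C3, Chil3, Ctsb and Psap gained the most CPM among called genes, and Scgb1a1, Lyz2, Gsn, Cbr2 and Cyp2f2 lost the most. CPM is not scaled to gene length, so this says which genes took the reads. C3, the central complement component, stood at 1262, 1741 and 1632 CPM in WT_PBS and 4992, 6722 and 6766 CPM in WT_Af (log2 1.99 ± 0.29 SE). Psap, the precursor of lysosomal sphingolipid activators, rose by log2 0.90 (adjusted p = 8.52e-04). The lysozyme gene Lyz2 stood at 6465, 4506 and 3656 CPM in WT_PBS and 2347, 1521 and 1604 CPM in WT_Af (log2 -1.41 ± 0.34 SE), and Gsn, an actin-severing protein, fell by 1.47. The 10 genes with the largest gains together held 0.818% to 1.09% of all CPM in WT_PBS and 3.26% to 3.45% in WT_Af.

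Among epithelial alarmins and their receptors, 7 of 10 tested genes rose and none fell (median log2 0.74). Il33, whose product is released by damaged epithelium and stroma, stood at 93.9, 90.2 and 76.1 CPM in WT_PBS and 430.3, 568 and 549 CPM in WT_Af (log2 2.56 ± 0.12 SE, adjusted p = 2.12e-07), and every WT_Af library was more than 4 times the highest WT_PBS library. Il1rl1, which encodes the interleukin 33 receptor, rose by log2 1.56. Areg, the epidermal growth factor receptor ligand amphiregulin made by type 2 lymphoid cells, rose by log2 1.85. The other alarmins did not follow: Tslp stood at 2.32, 2.34 and 2.08 CPM in WT_PBS and 2.11, 1.57 and 2.66 CPM in WT_Af (adjusted p = 0.685), and Il25 was below the filter with 1 read in the WT_PBS libraries and 0 in the WT_Af libraries, where up to 0.144 CPM would be compatible with a count of 0.

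The type 2 cytokines themselves were rare transcripts. Il13 stood at 0, 0.217 and 0.0472 CPM in WT_PBS and 7.77, 5.83 and 5.05 CPM in WT_Af (adjusted p = 1.78e-05), from 0 to 5 reads in the WT_PBS libraries. Il5, the eosinophil growth factor gene, stood at 0.0414, 0.26 and 0.236 CPM in WT_PBS and 3.55, 3.31 and 3.56 CPM in WT_Af (adjusted p = 5.69e-06), and Il4, the class-switch cytokine gene, at 0.0828, 0.0868 and 0.378 CPM in WT_PBS and 1.68, 2.03 and 1.95 CPM in WT_Af (adjusted p = 1.34e-04). Every WT_Af library lay above every WT_PBS library for all 3 genes. Il9 was not tested, with 0 reads in 5 libraries and 1 in WT_Af 19. The decoy receptor gene Il13ra2, a STAT6 target, reached 5.95, 7.27 and 5.43 CPM from 0.124, 0 and 0 CPM (adjusted p = 1.72e-07), and Socs1, a feedback inhibitor of cytokine receptors, rose by log2 2.29. Il4ra, the shared receptor chain, rose by 0.99, and Rora, a transcription factor of innate lymphoid cells and of the clock, fell by 1.0. Of the 18 tested genes of this list 14 rose and 1 fell (median log2 1.27).

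Genes of the other arms of T cell help were compared in the same way, and differences between the arms were not tested. Of the 15 genes of the interleukin 17 and 22 axis 6 were below the filter, Il17a, Il17f, Il22, Il23a, Il12b and Il23r. Il17a stood at 0.0414, 0.0434 and 0.142 CPM in WT_PBS and 0.192, 0.197 and 0.412 CPM in WT_Af. Of the 9 tested, 4 rose, among them Il6, an inflammatory cytokine gene, at 0.414, 0.694 and 0.614 CPM in WT_PBS and 7.25, 17 and 20.3 CPM in WT_Af (log2 3.73 ± 0.34 SE), and Il22ra2, a soluble decoy receptor, fell by 1.21. Il1b and Csf3 rose by log2 1.40 and 1.54, Il1b losing its call without WT_Af 20 (adjusted p = 0.054) and Csf3 without WT_Af 19 (0.0529). On the type 1 axis 5 of 12 genes rose and 3 fell (1 without WT_PBS 15), with Il18 down by 1.29 and Il12rb1 up by log2 1.05. Ifng, below the filter, stood at 0.0414, 0.0868 and 0.283 CPM in WT_PBS and 0.48, 0.328 and 0.599 CPM in WT_Af. Nos2, the nitric oxide synthase gene of classically activated macrophages, was at 20.6, 13.8 and 9.02 CPM in WT_PBS and 14.3, 14.2 and 16.6 CPM in WT_Af (adjusted p = 0.679).

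Of the 21 genes of alternative activation and type 2 effect, 20 rose and none fell (median log2 2.18). They took 3024 to 3964 summed CPM in WT_PBS and 18249.6 to 20821 in WT_Af. Arg1, which splits arginine into ornithine and urea, stood at 3.89, 4.21 and 5.9 CPM in WT_PBS and 446, 713 and 995 CPM in WT_Af (log2 7.06 ± 0.41 SE, adjusted p = 5.74e-07), and WT_Af 18 was the lowest of its group. The resistin-like genes lie together on chromosome 16 (Retnlb chr16:48816856-48818892, plus strand; Retnla chr16:48842551-48844461, plus strand; Retnlg chr16:48872621-48874496, plus strand; GRCm38) and all 3 rose. Retnla, a product of alternatively activated macrophages, stood at 59.6, 80.0 and 88.8 CPM in WT_PBS and 9312, 7508 and 7715 CPM in WT_Af (log2 6.75 ± 0.22 SE, adjusted p = 2.11e-08). Retnlg, a product of granulocytes, stood at 14.4, 24.2 and 13.5 CPM in WT_PBS and 168, 105 and 143 CPM in WT_Af (log2 2.99 ± 0.27 SE). Retnlb, better known from goblet cells, stood at 0, 0.0434 and 0.0472 CPM in WT_PBS and 3.65, 4.75 and 7.68 CPM in WT_Af, or 0, 1 and 1 reads in the WT_PBS libraries (adjusted p = 7.16e-07).

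A second cluster, on chromosome 3, holds the chitinase gene Chia1 and the chitinase-like genes Chil3 and Chil4, and all 3 were called higher by limma. Chil4 was not called with edgeR, as given below. Chia1, the acidic mammalian chitinase that cleaves the chitin of fungal walls, stood at 54.8, 87.3 and 56.4 CPM in WT_PBS and 1433, 764 and 742 CPM in WT_Af (log2 3.84 ± 0.28 SE). Chil3, whose product binds chitin-like sugars without cleaving them, stood at 188, 164 and 122 CPM in WT_PBS and 3551, 2139 and 2856 CPM in WT_Af (log2 4.16 ± 0.27 SE). For Chil4 the WT_PBS libraries differed among themselves, at 0.786, 0.564 and 309.9 CPM, with 697, 559 and 562 CPM in WT_Af. The high value is in WT_PBS 17, the library with squamous and skeletal muscle transcripts, and the log2 change was 6.33 with it, 9.01 without it, 4.92 without WT_PBS 16, and 2.56 with edgeR (adjusted p = 0.158). Pdcd1lg2, the ligand of the PD-1 receptor, named after its values were seen, went from 0.373, 0.651 and 0.425 CPM to 26.9, 23.1 and 28.3 CPM (log2 4.76 ± 0.24 SE).

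Some of these effectors are textbook targets of STAT6, which binds TTC and GAA set 4 bases apart. The promoters of the whole list were searched for those letters because its members moved together. In RefSeq promoters (250 bases before the start, GRCm38.p6) the motif, which reads alike on both strands in its fixed letters, was found in 5 of the 14 effector promoters that had an entry, or 35.7%. It was found in 518 of 11482 promoters of all tested genes, or 4.51%, and in 20 of 206 promoters of all genes at least 4-fold higher, or 9.71%. The effector promoters had a median of 46.8% G and C and all promoters 59.2%. The part of base composition in the difference was not tested. Another element, TTTGAA, taken up below with cell cycle genes, was in 6 of the same 14 promoters (42.9%). Whether STAT6 acts at any of these promoters was not tested. Of the 7 promoters with an entry among the 10 highest rises, Retnla and Cd209e held it. All 5 of these genes rose. Distances are counted from the RefSeq start, which for Retnla and Retnlg differs from the gene start given above. The matches are shown with up to 45 bases on either side and the motif in capitals. This lets the related sequences of the neighbours Retnla and Retnlg be compared.
Retnla (chr16:48842419-48842518, plus strand; motif starting 145 bases before the start): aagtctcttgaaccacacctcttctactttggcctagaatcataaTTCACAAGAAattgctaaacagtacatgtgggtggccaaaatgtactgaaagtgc
Retnlg (chr16:48872491-48872590, plus strand; 72 bases before): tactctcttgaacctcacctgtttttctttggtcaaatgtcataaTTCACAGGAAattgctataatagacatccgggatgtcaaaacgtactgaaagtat
Cd209e (chr8:3854311-3854410, minus strand; 79 bases before): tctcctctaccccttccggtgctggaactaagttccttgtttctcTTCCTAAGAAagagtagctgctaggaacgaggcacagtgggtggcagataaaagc
Pdcd1lg2 (chr19:29410792-29410891, plus strand; 82 bases before): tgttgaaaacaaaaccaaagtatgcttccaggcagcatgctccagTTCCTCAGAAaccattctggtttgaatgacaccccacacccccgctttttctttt
Clec7a (chr6:129472856-129472955, minus strand; 131 bases before): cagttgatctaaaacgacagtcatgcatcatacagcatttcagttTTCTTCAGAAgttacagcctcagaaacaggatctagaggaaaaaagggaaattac

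Of 21 tested genes of arginine and polyamine metabolism, Arg1 among them, 11 rose and 1 fell (median log2 0.38). Slc7a2, an arginine transporter of activated macrophages, rose by log2 1.34, and the mitochondrial arginase gene Arg2 by 1.33. Downstream of ornithine, Odc1, which makes putrescine, stood at 69.4, 62.6 and 56.6 CPM in WT_PBS and 118, 159.6 and 164 CPM in WT_Af (log2 1.21 ± 0.15 SE), and the spermidine synthase gene Srm rose by 1.23. The groups did not overlap for these 4 genes. Oaz2, an inhibitor of Odc1, fell by 0.39, a call that was lost without WT_PBS 15 or 16 or WT_Af 19 or 20 (adjusted p up to 0.111).

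Of 19 tested CC chemokine genes 14 rose and 3 fell (median log2 1.96). 5 of those that rose lie side by side on the plus strand of chromosome 11 (GRCm38), in the order Ccl2, Ccl7, Ccl11, Ccl12 and Ccl8, from 82035571 to 82116799. Ccl8, a chemokine of type 2 inflammation, stood at 2.9, 5.03 and 7.27 CPM in WT_PBS and 458, 444 and 403 CPM in WT_Af (log2 6.37 ± 0.30 SE, adjusted p = 1.72e-07). Ccl7, a monocyte attractant, stood at 0.455, 1.39 and 2.03 CPM in WT_PBS and 37.5, 87.1 and 93 CPM in WT_Af (log2 5.35 ± 0.38 SE), and its neighbour Ccl2 at 0.786, 4.21 and 5.05 CPM in WT_PBS and 30.6, 93.6 and 85.7 CPM in WT_Af (log2 4.29 ± 0.54 SE). For Ccl2 and Ccl7, WT_Af 18 was the lowest of its group. Ccl11, the eosinophil attractant eotaxin 1, stood at 5.67, 9.94 and 13.9 CPM in WT_PBS and 127, 125 and 105 CPM in WT_Af (log2 3.61 ± 0.23 SE). A second group, Ccl5, Ccl9, Ccl6, Ccl3 and Ccl4, spans 83525778 to 83664683 on the same chromosome, and these rose by log2 0.74, 3.76, 1.98, 1.79 and 1.96. Ccl5 lost its call without WT_Af 18 (adjusted p = 0.058), and Ccl3 without WT_PBS 15 or WT_Af 20 (0.0568 and 0.0567). Elsewhere, Ccl24, eotaxin 2, rose from 1.24, 2.47 and 2.46 CPM to 48.4, 52.2 and 64.4 CPM. Ccl17 and Ccl22, the ligands of Ccr4 on type 2 T cells, rose by 1.83 and 3.01.

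The CC chemokine genes that fell were homeostatic ones: Ccl21a of lymphatic vessels (log2 -0.75) and the epithelial genes Ccl27a and Ccl28 (-0.87 and -0.64). The number lower was 1 without WT_PBS 17. Ccl28 lost its call without WT_Af 18 as well (adjusted p = 0.064), and Ccl21a without WT_PBS 15 or 16 or WT_Af 19 or 20 (up to 0.157). Ccl25 was not called, at 3.39, 1.82 and 2.55 CPM in WT_PBS and 30.1, 2.52 and 2.06 CPM in WT_Af, high only in WT_Af 18. Ccl25, made by thymic epithelium, itself belongs to the 12 thymus genes above. The source of its transcripts in WT_Af 18 was not tested.

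Of 16 CXC and other chemokine genes 11 rose and 1 fell (median log2 1.17). The neutrophil attractant genes Cxcl5 and Cxcl1 stood at 0.869, 0.955 and 1.18 CPM in WT_PBS and 22.7, 46.7 and 28.6 CPM in WT_Af and at 2.73, 4.73 and 6.47 CPM in WT_PBS and 21.3, 60.8 and 41 CPM in WT_Af (log2 4.41 ± 0.36 SE and log2 2.96 ± 0.38 SE). Cxcl10 and Cxcl9, which are induced by interferon, rose by log2 3.13 and 2.62, to 8.78, 12.3 and 12.8 CPM and 11.7, 12 and 12.2 CPM. Cxcl2 missed the threshold (1.16, 2 and 3.02 CPM in WT_PBS and 2.78, 5.47 and 7.26 CPM in WT_Af, adjusted p = 0.052), with WT_Af 18 at the level of WT_PBS 17. Cx3cl1, the membrane-bound chemokine of endothelium and epithelium, fell by 0.76 and lost its call without WT_PBS 16 or 17 or WT_Af 18 or 19 (adjusted p up to 0.0764).

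**Figure D4:**
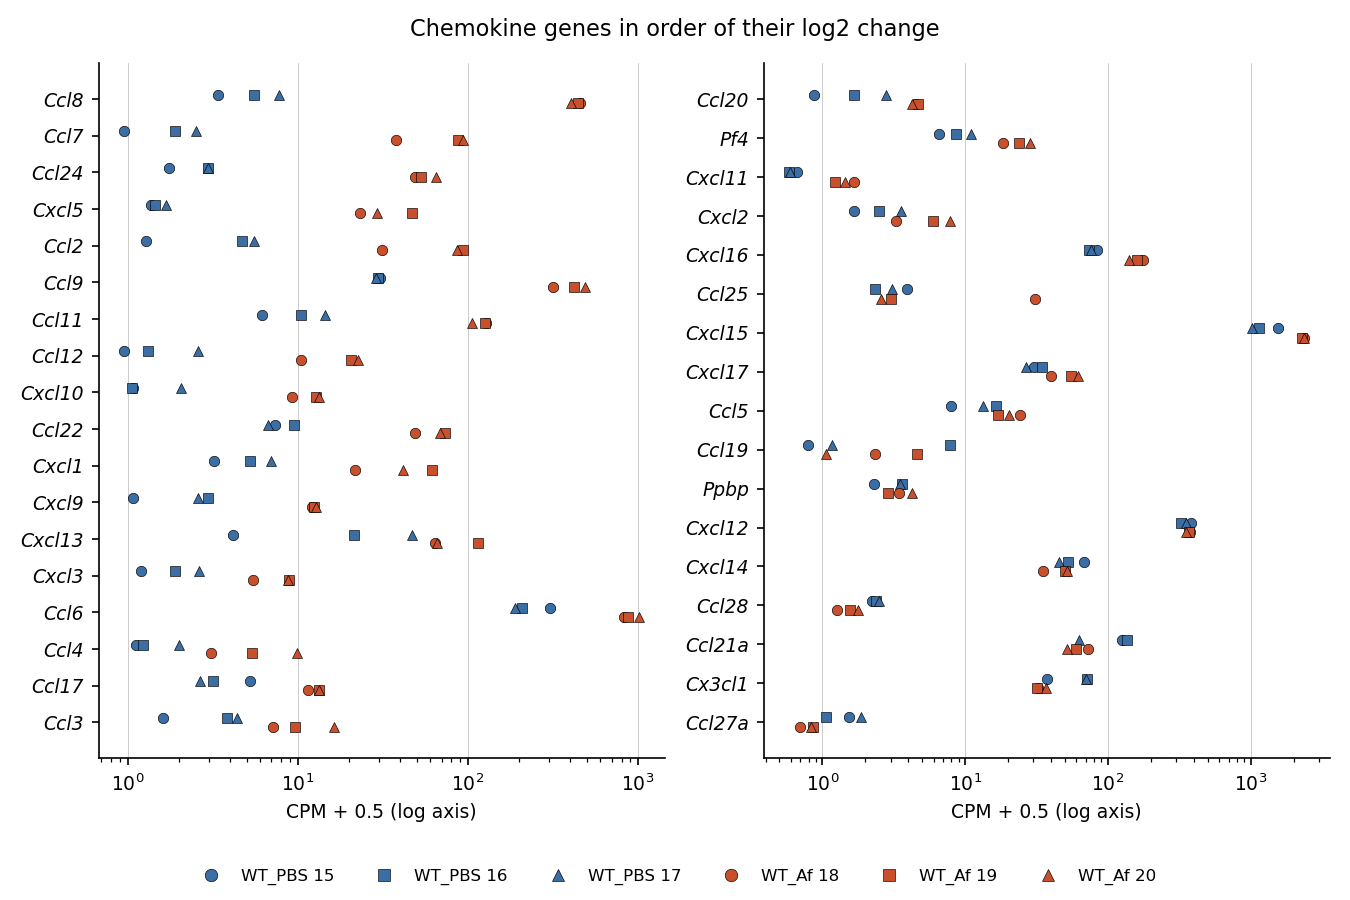
Level of 35 chemokine genes in each wild-type library, in order of their log2 change, as CPM + 0.5 on a log axis; each point is 1 library. The groups lie furthest apart for Ccl8, Ccl7 and Ccl24 at the top left, and Ccl27a and Cx3cl1 at the bottom right are lower in WT_Af.

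Receptors of these chemokines were higher in 13 of 21 cases and lower in 4 (2 without WT_PBS 16 or WT_Af 19). Ccr2, the receptor of Ccl2 and Ccl7, stood at 25.5, 30.7 and 26.5 CPM in WT_PBS and 78.3, 81.5 and 109 CPM in WT_Af (log2 1.67 ± 0.14 SE), and Ccr1 rose by log2 2.31. Ccr3, the eotaxin receptor of eosinophils, rose by 1.98, and Ccr4 by 1.44. Ccr9 rose by 2.33, but WT_Af 18 stood at 47.1 CPM against 4.46 and 5.28 CPM for Ccr9 in WT_Af 19 and 20, and without that library the log2 change was 1.27 (adjusted p = 0.00261). The atypical receptor gene Ackr4 fell by 1.23, or missed the threshold without WT_PBS 16 (adjusted p = 0.0537).

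Of 12 eosinophil genes 7 rose and 1 fell. The granule protein genes Prg2 and Epx stood at 1.37, 0.998 and 0.992 CPM in WT_PBS and 49.8, 14.6 and 15.7 CPM in WT_Af and at 0.207, 0.0434 and 0.0472 CPM in WT_PBS and 21.2, 5.08 and 8.05 CPM in WT_Af (log2 3.84 ± 0.41 SE and log2 4.09 ± 0.43 SE), and WT_Af 18 was the highest of its group for both. Ear6, an eosinophil-associated ribonuclease, stood at 0.248, 0.738 and 0.661 CPM in WT_PBS and 16.3, 12.7 and 11.6 CPM in WT_Af (log2 3.76 ± 0.22 SE). Ear1, of the same family, fell by 0.49. It lost its call without WT_PBS 15 or 16 or WT_Af 19 or 20, without a filter, with the wild-type libraries alone and with edgeR (adjusted p up to 0.163). Siglecf, shared by eosinophils and alveolar macrophages, did not pass (22.5, 18.6 and 14 CPM in WT_PBS and 28.2, 14.2 and 18.8 CPM in WT_Af, adjusted p = 0.679). Of 14 neutrophil genes 10 rose and none fell, led by Retnlg and by Il1r2, a decoy receptor (log2 2.26). The number higher was 7 without WT_PBS 15 or 17 or WT_Af 19 or 20. S100a8, a cytosolic calcium-binding protein of neutrophils, missed the threshold (adjusted p = 0.0718). Ly6g was called, at 0.911, 0.521 and 0.52 CPM in WT_PBS and 1.87, 0.95 and 1.16 CPM in WT_Af. It lost its call in 7 of 14 alternative settings, among them without WT_PBS 16 or 17 or WT_Af 18 or 20 (adjusted p up to 0.157).

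Of 15 mast cell and basophil genes 8 rose and 1 fell. The mucosal protease genes Mcpt1 and Mcpt2 rose, Mcpt1 from 0.166, 0.0434 and 0.189 CPM to 4.32, 6.49 and 4.08 CPM (adjusted p = 4.62e-05) and Mcpt2 by log2 2.64. The connective tissue protease gene Mcpt4 and the shared carboxypeptidase gene Cpa3 did not pass (1.03, 2.95 and 4.58 CPM in WT_PBS and 2.5, 1.61 and 1.01 CPM in WT_Af, adjusted p = 0.447; Cpa3 log2 0.45, adjusted p = 0.259). Mcpt8, a basophil protease, rose by 2.16, and Fcer1a, the high-affinity IgE receptor chain of both cell types, by 1.02. Gata2, a transcription factor of mast cells and endothelium, fell by 0.87. Differences between the proteases were not tested.

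Of 23 monocyte and recruited macrophage genes 16 rose and 1 fell (median log2 1.36). Spp1, the osteopontin gene, stood at 84.5, 62.3 and 46 CPM in WT_PBS and 655, 670.4 and 739 CPM in WT_Af (log2 3.45 ± 0.20 SE). Mmp12, the macrophage elastase, rose by log2 3.09 and Trem2, a lipid receptor gene, by 2.52. Ly6c2, a marker of classical monocytes, stood at 26.7, 34.6 and 38.9 CPM in WT_PBS and 33.5, 27.6 and 30.4 CPM in WT_Af (adjusted p = 0.567), and Cx3cr1, of patrolling monocytes, fell by 0.87, a call lost without WT_PBS 15, WT_Af 19 or WT_Af 20 (adjusted p up to 0.0695). Of 18 alveolar macrophage genes 7 rose and 5 fell (median log2 0.01). Chil3, given above, rose most (log2 4.16). With it, the summed level of the list was 1135.5 to 1432 CPM in WT_PBS and 3814 to 4964 CPM in WT_Af. The scavenger receptor gene Marco stood at 7.95, 8.03 and 8.41 CPM in WT_PBS and 2.5, 1.7 and 1.5 CPM in WT_Af (log2 -1.87 ± 0.16 SE), Plet1 fell by 1.34 and Fabp1 by 2.56, while Pparg, their lineage factor, stood at 12.8, 17.1 and 22.2 CPM in WT_PBS and 16.7, 18.8 and 16.4 CPM in WT_Af (adjusted p = 0.916). Cd163, a scavenger receptor named after its values were seen, rose from 14.5, 19 and 32.5 CPM to 117, 408 and 498 CPM (log2 3.76 ± 0.56 SE), lowest in WT_Af 18.

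Of 16 dendritic cell genes 10 rose, among them Il4i1, an amino acid oxidase (log2 2.40), and Batf3, a factor of cross-presenting cells (2.38). Clec9a, a marker of those same cells, fell by 0.91, and Xcr1 did not pass (log2 -0.07, adjusted p = 0.84). Of 15 MHC class II and antigen presentation genes 13 rose and none fell (median log2 0.63), led by the protease gene Ctss (1.66), the reductase gene Ifi30 (1.57) and the costimulator gene Cd80 (1.32). H2-Ab1, a class II chain, stood at 420.3, 309 and 291 CPM in WT_PBS and 699, 468 and 437 CPM in WT_Af (adjusted p = 0.0158), with WT_PBS 15 the highest of its group, and lost its call without WT_PBS 16 or 17 or WT_Af 18 (adjusted p up to 0.0642). Among 15 class I genes 11 rose, with the immunoproteasome gene Psmb8 at log2 1.0.

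T cell genes have to be read beside the thymus transcripts of WT_Af 18. Of 29 genes 23 rose and none fell (median log2 1.39). The number was 17 without WT_Af 18 and 13 without WT_PBS 15, the lowest WT_PBS library for this list. Summed levels were 235 to 383 CPM in WT_PBS and 1224, 485 and 458 CPM in WT_Af. Cd8a stood at 2.15, 7.42 and 5.53 CPM in WT_PBS and 92.4, 7.96 and 4.57 CPM in WT_Af (adjusted p = 0.111), so that WT_Af 19 and 20 lay within or near the range of WT_PBS. Cd3e, a chain of the T cell receptor complex, was called (5.09, 11.1 and 8.31 CPM in WT_PBS and 36.2, 13.2 and 10.5 CPM in WT_Af, log2 1.09) but not without WT_Af 18 (adjusted p = 0.107), nor without WT_PBS 15 or 17. Cd4 rose by log2 1.33, or 0.76 without WT_Af 18, and Trbc1 by 1.93, or 1.07, and both lost their calls without WT_PBS 15 (adjusted p = 0.0518 and 0.0638).

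Activation genes of T cells had another pattern over the same libraries. Ctla4, an inhibitory receptor, stood at 0.497, 0.434 and 0.567 CPM in WT_PBS and 3.26, 4.88 and 5.02 CPM in WT_Af (log2 2.27 ± 0.19 SE), and Il2ra, the interleukin 2 receptor chain of activated and regulatory cells, at 6.37, 5.81 and 4.91 CPM in WT_PBS and 23.2, 24.6 and 28.7 CPM in WT_Af (log2 2.07 ± 0.17 SE). Tnfrsf4, the costimulator OX40, stood at 0.993, 1.3 and 0.378 CPM in WT_PBS and 5.61, 6.39 and 6.78 CPM in WT_Af (log2 2.34 ± 0.23 SE), and Foxp3, the factor of regulatory T cells, at 1.82, 2.6 and 1.56 CPM in WT_PBS and 5.13, 4.78 and 4.87 CPM in WT_Af (log2 1.14 ± 0.24 SE). WT_Af 18 was the lowest WT_Af library for Ctla4, Il2ra and Tnfrsf4 and close to the others for Foxp3. Of 12 NK cell and cytotoxic granule genes 7 rose, with Gzmb at log2 1.72 and Gzma at 1.46, while the NK receptor gene Ncr1 did not pass (0.27, adjusted p = 0.409).

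Immunoglobulin transcripts varied between libraries of the same group. Ighm, the IgM heavy chain, stood at 712, 982 and 2768 CPM in WT_PBS and 2856, 922 and 775 CPM in WT_Af (adjusted p = 0.974), high in WT_PBS 17 and in WT_Af 18. Of 12 constant region genes none rose and Ighg1 was called lower by 0.93, a call lost without WT_PBS 15 or 16 or WT_Af 18 or 20 (adjusted p up to 0.178), with a pseudocount of 0.1, without a filter, with median-of-ratios scaling, with array weights and with edgeR (0.0509 to 0.088). Ighe, the IgE heavy chain gene, stood at 0.621, 13.8 and 2.65 CPM in WT_PBS and 7.2, 8.29 and 2.32 CPM in WT_Af (adjusted p = 0.472). Of 24 B and plasma cell genes 9 rose (5 without WT_Af 18), the highest being Fcer2a, the low-affinity IgE receptor (log2 2.10), and Mzb1, a chaperone of antibody-secreting cells (1.67). Fc receptors rose in 10 of 14 cases, led by the inhibitory receptor gene Fcgr2b, at 53, 31.8 and 34.6 CPM in WT_PBS and 283, 366 and 423 CPM in WT_Af (log2 3.17 ± 0.21 SE).

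Genes by which myeloid cells sense and kill fungi were compared next. Of 29 recognition and signalling genes 18 rose and 2 fell (median log2 0.71). Clec7a, the β-glucan receptor Dectin-1, stood at 72.9, 67 and 50.5 CPM in WT_PBS and 168, 149 and 179.9 CPM in WT_Af (log2 1.39 ± 0.15 SE, adjusted p = 2.46e-05), whereas the Dectin-2 gene Clec4n and the related Clec4e and Clec4d did not pass (log2 -0.22, 0.25 and 0.14). Ptx3, a soluble pentraxin that opsonises Aspergillus conidia, rose from 0.993, 0.694 and 0.756 CPM to 4.27, 8.32 and 8.57 CPM (log2 2.47 ± 0.31 SE). Lgals3, a galectin, rose by 2.33, and the integrin chain gene Itgam of complement receptor 3 by 1.65. Tlr2 and Clec1a, the endothelial receptor of conidial melanin, fell by 0.38 and 1.0.

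The phagocyte oxidase did not move as a unit. The cytosolic subunit genes Ncf1 and Ncf4 rose by log2 1.44 and 1.60 and the membrane subunit gene Cyba by 1.14, while Cybb, the catalytic membrane subunit, stood at 178, 168 and 139.7 CPM in WT_PBS and 131, 92.6 and 108 CPM in WT_Af and was called lower (log2 -0.56 ± 0.12 SE, adjusted p = 0.00311). Rac2, the small GTPase that completes the complex, rose by 1.39. The epithelial oxidase gene Duox1 rose from 0.166, 0.304 and 0.52 CPM to 8.92, 4.49 and 5.69 CPM (log2 3.02 ± 0.30 SE). Of complement genes 12 of 26 rose and 3 fell, with the regulator gene Cfi at log2 2.88 and the anaphylatoxin receptor gene C3ar1 at 2.82. Interferon-stimulated genes gave lower values: 11 of 25 rose with a median log2 of 0.34, among them Mx1 (1.16) and Isg15 (1.11), and Ifit1 and Irf7 did not pass (adjusted p = 0.256 and 0.132).

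In the airway epithelium, goblet cell genes rose. Of 22 tested 14 rose and 2 fell (median log2 0.94), and the 2 that fell, Muc16 and Muc20, lost their calls without WT_PBS 16 or WT_Af 18 or 19, Muc16 also without WT_PBS 17 and Muc20 without WT_PBS 15 (adjusted p up to 0.0883 and 0.099). Clca1, a secreted regulator of mucus and chloride flow, stood at 6.71, 15 and 26.5 CPM in WT_PBS and 1138, 1109 and 1346 CPM in WT_Af (log2 6.37 ± 0.72 SE, adjusted p = 3.23e-05). Muc5ac, the inducible airway mucin, stood at 4.55, 4.9 and 3.59 CPM in WT_PBS and 47.4, 58.3 and 83.3 CPM in WT_Af (log2 3.68 ± 0.26 SE), and Itln1, a lectin of mucus, rose by 4.76. Their regulator genes moved less, Spdef by 0.85 and Foxa3 by 0.73. Muc5b, the constitutive mucin, named after its values were seen, was at 87.8, 104 and 105 CPM in WT_PBS and 105, 136 and 176 CPM in WT_Af (adjusted p = 0.0683).

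Of 11 tested ion transport genes 2 rose and 5 fell (median log2 -0.22). Slc26a4, the chloride and bicarbonate exchanger pendrin, stood at 8.86, 6.99 and 5.01 CPM in WT_PBS and 402, 339 and 369 CPM in WT_Af (log2 5.67 ± 0.19 SE, adjusted p = 2.11e-08). All 3 subunit genes of the epithelial sodium channel fell, Scnn1a by 1.54, Scnn1b by 1.52 and Scnn1g by 1.75, with groups that did not overlap. Scnn1a, for example, stood at 488, 548 and 539.8 CPM in WT_PBS and 229, 161 and 158 CPM in WT_Af. Cftr, the cystic fibrosis chloride channel, was called lower by 0.40 but not without WT_PBS 15, WT_Af 19 or WT_Af 20 (adjusted p up to 0.148). Ano1, a calcium-activated chloride channel, fell by 0.72, or missed the threshold without WT_Af 20 (adjusted p = 0.0582), and without that library 3 genes of the list were lower.

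Club cell genes fell in 21 of 26 cases and rose in 3 (median log2 -1.15). Their summed level was 23209 to 27359 CPM in WT_PBS and 12341 to 12855 CPM in WT_Af. Cyp2f2, a P450 that defines club cells, stood at 2104, 2601 and 2492 CPM in WT_PBS and 535, 367 and 372 CPM in WT_Af (log2 -2.51 ± 0.20 SE), and Scgb3a1, a secretoglobin, fell by 1.39. Cbr2, a carbonyl reductase, fell by 1.90. Scgb1a1 itself changed less, at log2 -0.73 (adjusted p = 0.0414), and lost its call without any library but WT_PBS 15 (adjusted p up to 0.111). Aldh1a7, Gsto1 and Nupr1 were the genes that rose (log2 0.62, 1.22 and 0.60), Gsto1 being a glutathione transferase and Nupr1 a stress-induced regulator.

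Of 30 ciliated cell genes 26 fell and 2 rose, and their summed level went from 935 to 1066 CPM to 507 to 528 CPM. The axonemal dynein genes Dnah5 and Dnah11 fell by 1.27 and 1.41, and Hydin, of the central pair, stood at 24.3, 26.3 and 23.6 CPM in WT_PBS and 7.87, 7.96 and 9.55 CPM in WT_Af (log2 -1.50 ± 0.16 SE). Cdhr3, a cadherin of ciliated cells, fell by 1.53. Foxj1, the factor that drives cilium genes, fell less, at log2 -0.41 (adjusted p = 7.34e-04). The 2 that rose, Mcidas and Ccno, act early in the making of multiciliated cells: Ccno stood at 3.85, 6.16 and 5.38 CPM in WT_PBS and 15.7, 13.8 and 11 CPM in WT_Af (log2 1.32 ± 0.21 SE) and Mcidas at 0.745, 1.56 and 1.75 CPM in WT_PBS and 3.98, 3.96 and 1.76 CPM in WT_Af (log2 0.99 ± 0.34 SE). Mcidas lost its call without WT_PBS 15, WT_Af 18 or WT_Af 19 (adjusted p up to 0.115), and Ccno kept it in all 6 fits.

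Basal and squamous genes depended on single libraries. Of 12 tested 4 rose, or 2 without WT_PBS 15, WT_PBS 16 or WT_Af 18. Krt5, the basal keratin, stood at 2.4, 5.25 and 30.2 CPM in WT_PBS and 28.9, 10.1 and 1.72 CPM in WT_Af (adjusted p = 0.911). Sprr1a, a cornified envelope gene, rose from 0.207, 0.174 and 8.97 CPM to 24.3, 42.2 and 42.7 CPM (log2 4.44 ± 0.89 SE). Sprr2a3 stood at 0, 0.0434 and 166 CPM in WT_PBS and 82.7, 66.7 and 58.8 CPM in WT_Af, with the highest level of all 6 libraries in WT_PBS 17. Its call (log2 4.28, adjusted p = 0.0456) was lost without any library but WT_PBS 17 and was made without that one (log2 7.05). With edgeR the log2 change was 0.34 (adjusted p = 0.848) and with DESeq2 0.33 (0.906).

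Alveolar type 1 genes fell in 17 of 20 cases (median log2 -1.27). Ager, given above, fell by 1.24 and Hopx, a factor of these cells, by 1.50. Rtkn2, a gene that marks them, stood at 219.5, 245 and 259 CPM in WT_PBS and 76.4, 41.1 and 31.8 CPM in WT_Af (log2 -2.36 ± 0.44 SE), and Vegfa, by which they signal to capillaries, fell by 1.24. Pdpn, the podoplanin gene, stood at 123, 129 and 124 CPM in WT_PBS and 130.2, 134 and 123 CPM in WT_Af (adjusted p = 0.873), and Icam1, an adhesion molecule that inflammation induces, rose by log2 0.73. Of 23 alveolar type 2 genes 6 rose and 6 fell, shares near those over all tested genes. Sftpc and Sftpa1 did not pass (adjusted p = 0.39 and 0.49), Sftpb fell by 0.66, or missed the threshold without a filter on low values (adjusted p = 0.0536), and Sftpd, the collectin that binds fungal walls, stood at 772, 677 and 587 CPM in WT_PBS and 1394, 1203 and 1151 CPM in WT_Af (log2 0.88 ± 0.13 SE). The lysozyme gene Lyz1 fell by 2.0.

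Endothelial genes fell in 25 of 39 cases and rose in 5 (median log2 -0.52). The number lower was 14 without WT_PBS 16, 15 without WT_PBS 17 and 16 without WT_Af 18 or 19. Esm1, a proteoglycan of sprouting vessels, stood at 18.9, 20.3 and 18.8 CPM in WT_PBS and 3.07, 3.21 and 2.66 CPM in WT_Af (log2 -2.51 ± 0.15 SE). The angiopoietin receptor gene Tek and the phosphatase gene Ptprb that acts on it fell by 1.01 and 1.23. The pan-endothelial gene Cdh5 fell by 0.58 and Pecam1 by 0.32, and both lost their calls without WT_PBS 16 or 17 or WT_Af 18 or 19 (adjusted p up to 0.0743 and 0.101). Genes of leukocyte capture went the other way: P-selectin (Selp) stood at 4.47, 6.29 and 6.85 CPM in WT_PBS and 31.7, 53.1 and 55.5 CPM in WT_Af (log2 2.87 ± 0.28 SE), E-selectin (Sele) at 0.538, 0.304 and 0.709 CPM in WT_PBS and 4.17, 10.5 and 7.75 CPM in WT_Af (log2 2.90 ± 0.29 SE) and the venular chemokine receptor gene Ackr1 rose by 1.50.

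Of 34 fibroblast and matricellular genes 10 rose and 12 fell (median log2 -0.24), the first share near that over all tested genes and the second somewhat above it. Thbs1 and Tnc, matricellular proteins of repair, rose by log2 2.27 and 1.87, whereas Npnt, Itga8 and Inmt of alveolar fibroblasts fell by 1.75, 1.80 and 1.86. Col1a1, the main fibrillar collagen, stood at 1009, 386 and 372 CPM in WT_PBS and 955, 976 and 835 CPM in WT_Af (adjusted p = 0.0464), and WT_PBS 15 lay above all 3 WT_Af libraries. The calls of collagen genes were 8 higher and 11 lower of 31, with 3 and 4 higher without WT_PBS 16 and 17. Col1a1 lost its call without any library but WT_PBS 15 (adjusted p up to 0.177), with edgeR (0.0997) and with DESeq2 (0.0589), and had a log2 change of 1.28 without WT_PBS 15, against 0.81 with it. The basement membrane genes Col4a3, Col4a4, Col4a5 and Col4a6 fell by 2.19, 1.83, 1.76 and 1.39, while Col4a1 stood at log2 -0.04 (adjusted p = 0.917). Col6a5, a collagen VI chain, stood at 2.77, 6.68 and 10.1 CPM in WT_PBS and 103, 93.2 and 79.9 CPM in WT_Af (log2 3.87 ± 0.41 SE).

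Of 26 metalloproteinase and inhibitor genes 10 rose and 7 fell. Adamts4, an aggrecanase, rose by log2 2.57 and Adam8, of granulocytes and macrophages, by 2.08, while Timp3 stood at 1396, 1375 and 1312 CPM in WT_PBS and 483, 430.4 and 459.7 CPM in WT_Af (log2 -1.57 ± 0.18 SE), opposite to Timp1. Among serpins, Serpina3g and Serpina3n, near relatives of one cluster that inhibit serine proteases, rose by 3.69 and 3.18, Serpina3n from 90.4, 74.4 and 69.7 CPM to 529, 845 and 799.6 CPM. Contractile genes of smooth muscle were called higher in 5 and lower in 6 of 23 cases. Of the genes for receptors and regulators that tighten or relax airway muscle 12 of 39 rose and 13 fell. The shares of both lists are near those over all tested genes. The muscarinic receptor gene Chrm2 fell by 1.52, and the serotonin receptor gene Htr2b rose by log2 1.83. Rgs4 stood at 25.8, 20.7 and 22.3 CPM in WT_PBS and 48.8, 42.7 and 43.8 CPM in WT_Af (log2 0.96 ± 0.18 SE, adjusted p = 9.42e-04), and its relative Rgs16 rose by 2.15.

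Wnt genes fell in 18 of 29 cases and rose in 4 (median log2 -0.63). The ligand gene Wnt3a stood at 12.3, 12.2 and 13.5 CPM in WT_PBS and 3.89, 2.49 and 0.899 CPM in WT_Af (log2 -2.32 ± 0.49 SE), and the R-spondin receptor gene Lgr6 fell by 1.56. All 4 that rose were secreted modulators: Sfrp1, Sfrp2 and Sfrp4, which bind Wnt ligands, and Rspo3, which prolongs their signal (log2 0.87, 0.90, 0.98 and 0.84). Sfrp4 lost its call without WT_PBS 15, WT_Af 18 or WT_Af 19 (adjusted p up to 0.0706). Of 14 tested ligand and receptor genes of the epidermal growth factor family 4 rose and 7 fell (median log2 -0.37). Ereg and Nrg1 rose with Areg (log2 1.78 and 1.83), and Tgfa and the receptor gene Erbb4 fell by 0.88 and 1.11.

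Of 40 cell cycle genes 39 rose and 1 fell (median log2 2.08). Their summed level was 761 to 818 CPM in WT_PBS and 1935 to 2150.0 CPM in WT_Af. Mki67, the proliferation marker, stood at 24, 29.8 and 29.4 CPM in WT_PBS and 159, 134 and 148 CPM in WT_Af (log2 2.39 ± 0.23 SE, adjusted p = 1.19e-05), and the ribonucleotide reductase gene Rrm2 rose by 2.92. WT_Af 18, with its thymus transcripts, had the highest summed level, and without it the number called higher was 39. Ccnd2, a D-type cyclin, was the member that fell (log2 -0.62, adjusted p = 5.31e-04). The element TTTGAA (searched with its complement TTCAAA), which is named the CHR and is found in promoters of mitotic genes, was in 9 of the 31 cell cycle promoters with an entry (29%) and in 1275 of 11482 promoters of all tested genes (11.1%). The share was like that of cell cycle genes or higher in other sets, 56 of 206 promoters of all genes at least 4-fold higher (27.2%) and 6 of 14 type 2 effector promoters (42.9%). Median G and C content was 56.8% in the cell cycle promoters.

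Ribosomal protein genes, grouped after their values were seen, moved together in the same libraries. Of 76 tested 74 rose and none fell, and log2 changes ran from 0.23 to 1.36 with a median of 0.73. Their summed level was 19359, 19340.0 and 19160 CPM in WT_PBS and 33367, 31656 and 31182 CPM in WT_Af, with a gap between the groups far wider than the spread within either. Rpl22 and Rpl21 were the members that did not pass (adjusted p = 0.0577 and 0.165).

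**Figure D5:**
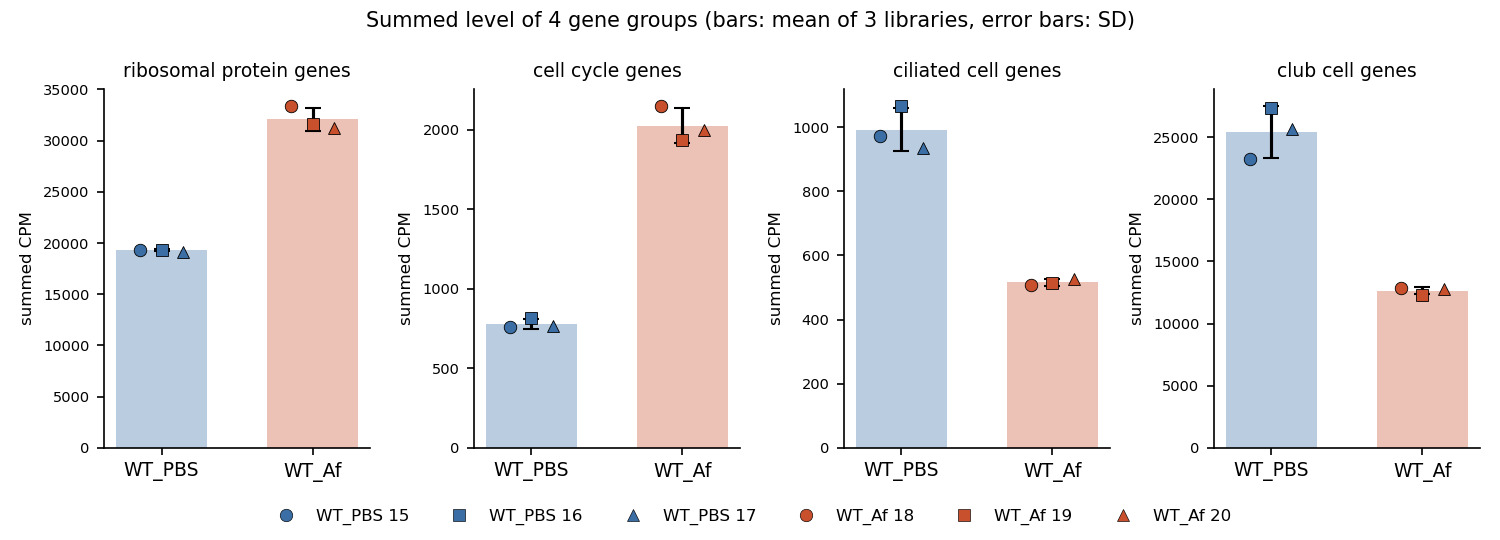
Summed CPM of ribosomal protein, cell cycle, ciliated cell and club cell genes in each wild-type library; bars are group means, error bars the SD of 3 libraries and points single libraries, and each axis starts at 0. Ribosomal protein genes go from 19160 to 19359 CPM up to 31182 to 33367 CPM and ciliated cell genes from 935 to 1066 CPM down to 507 to 528 CPM, with no overlap between groups in any panel.

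Of 30 endoplasmic reticulum genes 21 rose and 2 fell (median log2 0.54). Hspa5, the main lumenal chaperone, stood at 792, 606 and 742 CPM in WT_PBS and 1118, 1297 and 1138 CPM in WT_Af (log2 0.74 ± 0.14 SE), and the co-chaperone gene Sdf2l1 rose by log2 1.74. Chac1, a target of the stress factor CHOP, fell by 1.05. Cytosolic chaperones did not move with them, 4 higher and 5 lower of 22. The number higher was 2 without WT_PBS 15 and 0 without WT_PBS 16 or WT_Af 19. Hspa1a differed between libraries of 1 group (206, 377 and 931 CPM in WT_PBS and 188, 201 and 246 CPM in WT_Af, adjusted p = 0.268), highest in WT_PBS 17. Of 28 cathepsin and lysosome genes 23 rose and none fell. Ctsb stood at 784, 683 and 686 CPM in WT_PBS and 2075, 2197 and 2319 CPM in WT_Af (log2 1.62 ± 0.12 SE), the bone-type collagenase gene Ctsk rose by 1.34, and Ctsd, though abundant, did not pass (0.36, adjusted p = 0.0843).

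In metabolism, 13 of 26 glycolysis and hypoxia genes rose and 4 fell. The enolase gene Eno1 stood at 113, 131 and 149 CPM in WT_PBS and 262, 334 and 279.8 CPM in WT_Af (log2 1.16 ± 0.13 SE), Pgk1 rose by 0.98 and Hk3, the hexokinase of myeloid cells, by 1.90. The vascular hypoxia factor gene Epas1 fell by 0.85, and Adm, the vasodilator adrenomedullin, rose by log2 1.87. Prostanoid and leukotriene synthesis genes rose in 13 of 23 cases. Alox15, which makes 15-lipoxygenase products in macrophages and eosinophils, rose by 2.27, Tbxas1, the thromboxane synthase, by 1.44 and Ptges, of prostaglandin E2, by 1.53. Hpgd, which breaks prostaglandins down, fell by 0.97. Ptgs2, the inducible cyclooxygenase, rose by 0.71, or missed the threshold without WT_Af 20 (adjusted p = 0.0523).

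Circadian clock genes split into 2 sets. The output and repressor genes Per3, Tef, Dbp and Per2 fell by 2.14, 1.99, 1.81 and 1.48, while the opposite-phase genes Nfil3, Npas2 and Arntl rose by log2 2.08, 1.66 and 0.99. Per3 stood at 35.8, 44 and 46.8 CPM in WT_PBS and 9.74, 8.52 and 9.17 CPM in WT_Af and Nfil3, which represses the targets of Tef and Dbp, at 15.7, 10.2 and 15.2 CPM in WT_PBS and 43.1, 65.7 and 70.8 CPM in WT_Af. The groups did not overlap for any of these 7 genes. In all, 5 of 19 rose and 10 fell. The sources used here do not give the hour at which lungs were taken. The E-box CACGTG, the same on both strands, was in 5 of the 15 clock promoters with an entry (33.3%) and in 921 of all 11482 (8.02%), with a median G and C content of 67.2% in the clock promoters. It is shown in capitals for a gene of each direction, Tef, which fell, and Cry1, which rose by log2 0.73 and was named after its values were seen.
Tef (chr15:81802501-81802596, plus strand; 127 bases before the start): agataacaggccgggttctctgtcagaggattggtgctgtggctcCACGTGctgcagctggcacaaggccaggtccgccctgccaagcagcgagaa
Cry1 (chr10:85185064-85185159, minus strand; 60 bases before the start): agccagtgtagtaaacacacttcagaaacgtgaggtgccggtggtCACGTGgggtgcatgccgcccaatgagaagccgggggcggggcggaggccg

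Genes that glucocorticoids induce were lower in 7 and higher in 4 of 17 cases (median log2 -0.68). Zbtb16, a zinc finger gene, stood at 222, 243 and 259 CPM in WT_PBS and 42.8, 53.8 and 63.2 CPM in WT_Af (log2 -2.18 ± 0.63 SE). Tsc22d3, the mediator GILZ, fell by 1.63 and Klf9 by 1.60. Fkbp5, a co-chaperone of the receptor, missed the threshold (157, 127 and 132 CPM in WT_PBS and 94.3, 70.6 and 96.6 CPM in WT_Af, adjusted p = 0.196). The metallothionein gene Mt2 rose by log2 1.94.

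Cardiac muscle genes stood at unequal levels in these libraries, and the source of their transcripts was not tested. Of 20 cardiac muscle genes 7 fell and none rose (4 lower without WT_PBS 17 or WT_Af 20, 11 without WT_Af 19). Their summed level was 1385 to 2419.6 CPM in WT_PBS and 928, 984 and 290.2 CPM in WT_Af, so that WT_Af 20 held the least. Nppa, the atrial natriuretic peptide, stood at 83, 97.4 and 178 CPM in WT_PBS and 62.7, 32.5 and 1.98 CPM in WT_Af (adjusted p = 0.0901), and Ryr2, the cardiac calcium release channel, fell by 2.23 (-1.58 on the log2 scale without WT_Af 20). Of 9 adipocyte genes none passed, and Adipoq stood at 10.4, 47 and 105 CPM in WT_PBS and 15.1, 41.1 and 2.7 CPM in WT_Af. Red blood cell genes gave no calls (0 of 6), with Hba-a1 at log2 -0.04 (adjusted p = 0.921).

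Whether the response differed from that of Rgs4 knockout lungs was tested gene by gene with the interaction of genotype and exposure in the same limma fit. 1 of 16126 genes passed (0.0062%), with 1750 at an unadjusted p under 0.05. It was Sult4a1, a brain-type sulfotransferase, at 4.06, 3.9 and 0.945 CPM in WT_PBS and 0.384, 0.295 and 0.225 CPM in WT_Af. Its log2 change was -1.94 in wild-type and 2.73 in knockout lung (difference -4.68, adjusted p = 0.0465). By unadjusted p the next gene was Esm1, at log2 -2.51 in wild-type and -4.06 in knockout lung (limma interaction, adjusted p = 0.0557). Genes that did not pass are not thereby shown to respond alike. Without WT_PBS 15 or 16 or any 1 WT_Af library the same fit made 0 calls. On recovered reads edgeR made 1 call and DESeq2 362, and limma with array weights made 1602.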

How the data were processed

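Poly-A RNA of whole lung was prepared with Qiagen RNEasy and Illumina TruSeq mRNA kits, per the labels' protocols. Per the submitters' processing notes the tools included cutadapt 1.18, STAR 2.7.6a and RSEM 1.3.0, and the builds GRCm38 and GRCh38 are named without roles. The values the authors deposited are a signal, CPM (reads relative to the library total) with TMM scaling, as the name of the deposited table says. The sources used here do not say whether counting used strand. In every library 100% of values were whole multiples of what 1 read is worth, within 0.01 reads, which gave the library totals.

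The test was limma 3.58.1 (R 4.3.3) with a mean-variance trend on log2(CPM + 0.5), in 1 fit over 4 groups of 3 libraries (8 residual degrees of freedom). Genes entered if 3 or more of the 12 libraries held 1 CPM, with Benjamini-Hochberg adjustment and a threshold of 0.05. The scripts were tested on simulated data. Libraries of a group correlated at Pearson r of 0.979 to 0.989 across genes, and no pair differed by as little as sampling noise. Of the gene identifiers 99.5% matched GENCODE M21, which gave GRCm38 coordinates. Promoters and their sequences came from RefSeq (GRCm38.p6).

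Some results are not reported here. The genes examined and the gene lists were chosen with earlier results of these data known. Named genes were the 10 highest and 10 lowest log2 changes called with groups that did not overlap (immunoglobulin and T cell receptor segments and Gm or Rik symbols left out), the 5 largest gains and losses of mean CPM, from each list the first 4 names and up to 4 called members with the largest rise and fall, and Rgs4. Named outside that rule, after their values were seen, were the thymus, squamous and skeletal muscle genes, the ribosomal protein genes, the untested cytokine genes, the chemokine neighbours Ccl3, Ccl4, Ccl5, Ccl6, Ccl9 and Ccl12, and Ccl25, Cd163, Cry1, Eln, Lck, Muc5b, Pdcd1lg2, Retnlb, Sult4a1 and Tcf7.

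Alternatives were pseudocounts of 0.1 and 2, no filter, a filter of 5 CPM, median-of-ratios scaling, array weights, edgeR 4.0.16 and DESeq2 1.42.0 on the recovered reads, the wild-type libraries alone, and each wild-type library left out.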

Additional observations from a re-analysis of the deposited data

Results flagged for a closer look

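Sult4a1 was the 1 gene called in the interaction test: its log2 change was -1.94 in wild-type and 2.73 in Rgs4 knockout lung, a difference of -4.68 (limma, adjusted p = 0.0465). Its level was low, with a mean of 2.97 CPM in WT_PBS, 0.301 CPM in WT_Af, 0.348 CPM in KO_PBS and 5.22 CPM in KO_Af, and WT_PBS 17 held less than WT_PBS 15 and 16 (0.945 against 4.06 and 3.90 CPM). What sets this gene apart was not tested.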

How the results depend on the processing

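Among the 513 single genes followed through the alternatives, no called change reversed direction. Some log2 changes that were not called changed sign, such as those of Ccl25, Clec4e, Col4a1, Hba-a1, Ighe, Ncr1 and Xcr1. Not all of these stayed near 0: the log2 change ran from -0.12 to 2.16 for Ccl25 and from -0.22 to 1.62 for Ighe. The number of genes higher ran from 3584 to 3827 and lower from 3497 to 3733 when each library was left out in turn. At least 2-fold falls numbered 577 with a pseudocount of 2, against 965, and the larger pseudocount shrinks log2 changes of low genes by construction. Interaction calls, 1 in the fit as reported, were 6 with a pseudocount of 2, 0 without a filter, 0 with a filter of 5 CPM, 5 with median-of-ratios scaling, 1602 with array weights, 362 with DESeq2 and 0 to 1 with a library left out, and the cause was not tested. Of 513 single genes followed through the alternatives, 498 kept their side of the threshold with edgeR, 491 of 504 with DESeq2, 479 without a filter (where Scgb1a1 had an adjusted p of 0.428) and 464 to 474 with a library left out. Of 112 list counts, 95 to 102 stayed within 1.5 times with a library left out. With edgeR Chil4 was not called (adjusted p = 0.158). No paired analysis was possible because every library carries a number of its own, and wild-type PBS libraries are numbered 15 to 17 and Af libraries 18 to 20. With 3 libraries a group an exact permutation test of 1 gene cannot go below p = 0.1.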

Other observations

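By gene type, 259 of 527 tested processed pseudogenes were called higher and 6 lower, with a median log2 change of 0.54. Of the 87 named after ribosomal proteins 63 were called higher and none lower, beside the 74 of 76 ribosomal protein genes themselves. The counting could split reads between such copies and their parent genes, so these are not separate results. Among 222 genes annotated as antisense 25 were higher and 61 lower, and among 231 lincRNAs 35 were higher and 62 lower.

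A pair of predicted genes was at 0 reads in 1 group. Gm45234 (chr6:124739189-124756021, minus strand, GRCm38) stood at 12.9, 17.2 and 15.0 CPM in WT_PBS and at 0 in all 3 WT_Af libraries, at least 104-fold lower against 3 reads per library, and at 0, 6.02 and 5.98 CPM in KO_Af. It overlaps Atn1 and Grcc10 on the same strand, and neither was called. Gm26649, a lincRNA (chr1:64029463-64032927, plus strand), stood at 0 in all 3 WT_PBS libraries and at 7.53, 2.0 and 5.47 CPM in WT_Af. It lies within Klf7 of the opposite strand, which was not called, and 1 of the 3 KO_PBS libraries held 4.66 CPM of Gm26649. Both genes share sequence positions with other genes, so their reads are uncertain. They were chosen after their values were seen.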
